A study of Mus musculus with 12 samples.

Results

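Tcra repertoires of thymocytes homozygous for DPASEKO (KO) were compared between 24 h and 48 h after tamoxifen. The comparison rests on 4 of the 12 libraries of the series, the pair labelled KO at 24 h and the pair labelled KO at 48 h, taken by their titles. The other 8 libraries are the wild-type (WT) libraries at 24 h and 48 h, which enter the fits as a second pair of groups, and the steady-state libraries of both genotypes, which are given as values only. All animals were 4 to 6 weeks old, of strain C57BL/6J, with a TcrdCreER allele of strain 129 origin at the Tcra-Tcrd loci and the Rosa26ZsG reporter, which the genotype field gives as Rosa26ZsG/+ and the strain field as Rosa26ZsG/ZsG. WT mice carried the same driver and reporter. Mice at 24 h and 48 h had received 1 mg of tamoxifen by intraperitoneal injection, and ZsGreen-positive, CD3e-negative double-positive (DP) thymocytes were sorted from them. CD3e-negative DP cells of the steady-state groups had no such labelling step. The protocol mentions 2 mice per group without tying a library to a mouse, so p-values measure only library-to-library spread, and some of that spread may be technical.

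DP thymocytes rearrange Tcra in rounds. A round joins a Trav segment to a Traj segment, and a later round on the same allele deletes that joint and uses a Trav segment farther upstream and a Traj segment farther downstream. The first rounds start near Traj58, under the T early alpha (TEA) promoter, and near the Traj49 promoter, and pair these Traj segments with the Trav segments closest to them. Traj usage therefore serves as a clock of how far rearrangement has gone. DPASE is a cis-regulatory element at the Rag1-Rag2 locus, which encodes the recombinase. TcrdCreER places an inducible Cre under control of Tcrd, a locus that lies between the Trav and Traj arrays and is deleted by the first Tcra joint, so a tamoxifen pulse marks cells near the start of the process and the later harvest samples them further on. The question of the comparison is how usage along both arrays moves over that day in cells without DPASE.

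The 43 Traj segments lie on chromosome 14 of GRCm38 from Traj58 (chr14:54157280-54157342) to Traj2 (chr14:54217836-54217901), upstream of the constant segment Trac. The 7 below are shown because the results turn on them: Traj58, Traj57 (chr14:54158507-54158569) and Traj56 (chr14:54159263-54159325) are the 5' segments with the largest falls, Traj40 (chr14:54177921-54177981) and Traj31 (chr14:54187895-54187951) held the largest share in one 48 h library each, Traj13 (chr14:54205741-54205797) had the largest rise, and Traj2 ends the array. The sequences are those of the GENCODE M21 transcripts on the plus strand of the C57BL/6J reference, so the strain 129 allele of these mice may differ at single bases.
Traj58: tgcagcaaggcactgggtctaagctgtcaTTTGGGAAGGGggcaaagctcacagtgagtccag
Traj57: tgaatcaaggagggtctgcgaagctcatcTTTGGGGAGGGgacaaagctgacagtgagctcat
Traj56: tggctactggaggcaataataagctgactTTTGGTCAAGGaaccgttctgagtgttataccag
Traj40: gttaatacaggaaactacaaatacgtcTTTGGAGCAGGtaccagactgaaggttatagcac
Traj31: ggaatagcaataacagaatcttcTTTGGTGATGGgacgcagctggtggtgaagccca
Traj13: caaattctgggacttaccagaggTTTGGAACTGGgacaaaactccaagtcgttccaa
Traj2: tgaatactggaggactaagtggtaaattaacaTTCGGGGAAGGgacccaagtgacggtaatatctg
Capitals mark the first match, in any frame, to the codons of the Phe-Gly-X-Gly motif that J segments share, up to the first 2 bases of its last Gly codon. Only the coding strand was searched. A match in some frame was present in 40 of the 43 Traj segments (93.0%), and Traj44, Traj38 and Traj33 had none. The 43 segments are 57 to 66 bases long. A match need not lie in the reading frame of its segment, and that of Traj7 does not.

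Each deposited table gives the fraction of the repertoire held by each Trav-Traj pair. Each was divided by its own total over the 79 Trav segments listed in all 4 KO tables (of 85 listed in any table of the series), which gives shares in percent for 3397 pairs. The tables come in 2 kinds, and among the KO libraries at 24 h and 48 h the kind goes with the replicate number. Replicate 1 tables summed to 0.995 and 0.998 and had 14.3% and 2.83% of pairs at 0 at 24 h and 48 h. Replicate 2 tables summed to 1.97 and 1.98, had 55.2% and 44.3% of pairs at 0, and listed no share below 0.00578% and 0.00721%, against 0.000821% and 0.000425% in replicate 1. WT tables at these times divide the same way. The steady-state tables of both genotypes were all of the replicate 1 kind, with sums of 0.997 to 0.998 and 1.47% to 1.53% of pairs at 0. Why the tables differ is not given in the sources used here, and depth in reads is unknown, so no counting interval or detection limit is given. Values are therefore printed for replicates 1 and 2 separately, in that order. No row of the tables holds Cd4, Cd8a, Cd3e, Rag1, Rag2 or DPASE, so genotype and cell type labels have no direct check here.

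Between 24 h and 48 h, the centre of Traj usage in KO cells moved toward the 3' end of the array. The mean Traj number of the repertoire was 45.7 and 47.1 at 24 h (46.4 ± 1.04, SD, n = 2) and 38.6 and 38.5 at 48 h (38.5 ± 0.0280). Both 48 h libraries stood below both 24 h libraries (mean change -7.84). The median Traj was Traj49 in both libraries at 24 h and Traj40 in both at 48 h. The mean distance of the Traj in use from Traj58 was 14.4 and 12.7 kb at 24 h and 22.2 and 22.3 kb at 48 h. Usage also spread: 10% to 90% of the repertoire ran from Traj57 to Traj32 and Traj33 at 24 h and from Traj53 to Traj21 in both libraries at 48 h, and the effective number of Traj segments (the exponential of the Shannon entropy of usage) went from 23.6 and 21.1 to 33.5 and 32.5. Such single values are given without a test: no model was fitted to them, and an exact permutation of 2 libraries against 2 has 0.333 as its smallest p. The libraries are bulk, and fewer cells with a joint and less RNA per cell from that joint cannot be told apart.

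**Figure D1:**
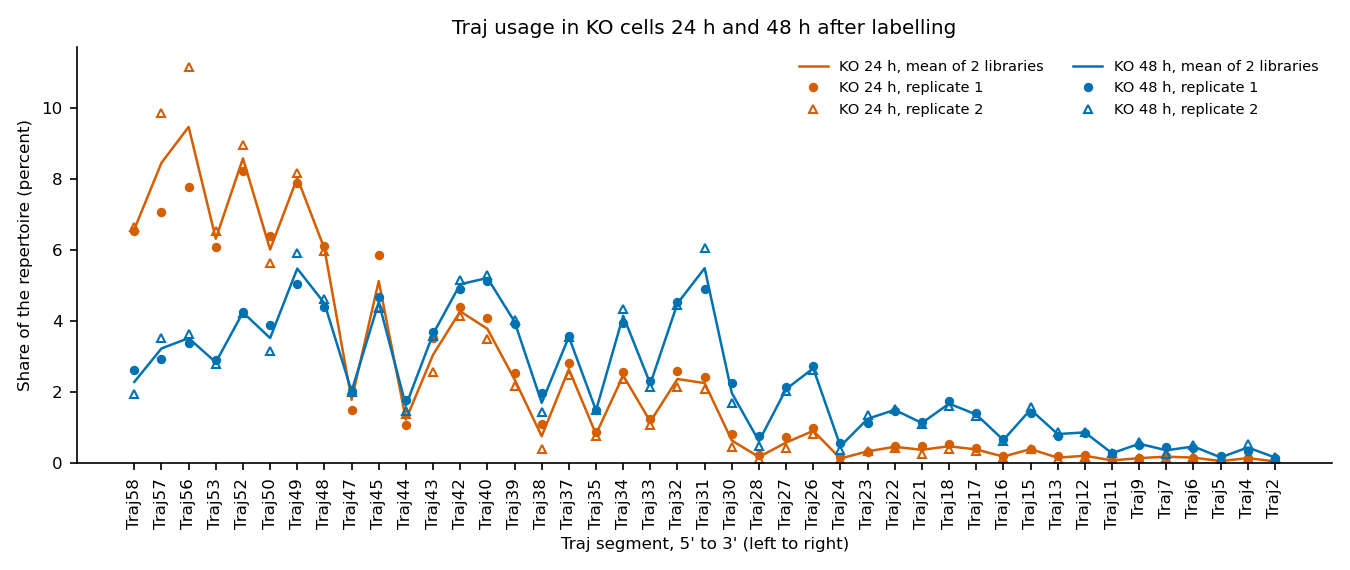
Share of the KO repertoire (percent) held by each of the 43 Traj segments, 5' to 3', with 1 point per library and lines for the mean of the 2 libraries at 24 h (orange) and 48 h (blue). The 24 h line peaks at Traj56 with libraries at 7.78% and 11.2%, and the 48 h line is flatter and higher from Traj44 to the 3' end.

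By the model fitted across all Traj segments (limma on log2(percent + 0.01), Benjamini-Hochberg adjusted p under 0.05), 36 of 43 Traj segments (83.7%) changed from 24 h to 48 h in KO cells: 29 (67.4%) rose and 7 (16.3%) fell. With the kind of table as a term of the model 38 (88.4%) were called, of which 30 (69.8%) rose and 8 (18.6%) fell. Both 48 h libraries were above both 24 h libraries for 33 segments (76.7%) and below them for 8 (18.6%). Shares sum to 100%, so a fall of the abundant 5' segments raises the others. The median change over the 43 was 1.27 on the log2 scale, and it was 0.43 on a scale centred on the mean log share of each library, on which 28 (65.1%) were called, 17 (39.5%) rising and 11 (25.6%) falling. Fold changes on this scale understate those of segments with low shares.

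The TEA window, Traj58 to Traj53, lost most. Its 4 segments held 27.5% and 34.2% of the repertoire at 24 h and 11.9% and 11.9% at 48 h, and all 4 fell, with a median log2 fold change of -1.39, on the centred scale too. Traj58, the first segment of the array, went from 6.53% and 6.65% to 2.63% and 1.96%. The 24 h libraries were close together and both well above the 48 h pair, and the log2 fold change was -1.54 (SE 0.27, adjusted p = 0.000985, limma). Traj57 went from 7.07% and 9.86% to 2.95% and 3.52% (-1.37, SE 0.22, adjusted p = 0.000533). Traj56 was the most used segment of replicate 2 at 24 h and went from 7.78% and 11.2% to 3.40% and 3.65% (-1.40, SE 0.23, adjusted p = 0.000725). Replicate 2 was the higher library for both segments at both times, and the groups did not overlap. Traj53 went from 6.10% and 6.55% to 2.90% and 2.79% (-1.15, SE 0.18, adjusted p = 0.000533), again with the 24 h libraries apart from those at 48 h.

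The Traj49-promoter window, Traj52 to Traj45, went from 36.0% and 35.2% to 24.3% and 24.3%, a loss of 11.3 percentage points. Traj52, Traj50 and Traj49 fell, and Traj48, Traj47 and Traj45 were not called, so the falls ended partway along this window. Traj52 led replicate 1 at 24 h with 8.23%, stood at 8.95% in replicate 2, and held 4.25% in each library at 48 h (log2 fold change -1.01, SE 0.16, adjusted p = 0.000533, limma). Traj50 went from 6.40% and 5.64% to 3.89% and 3.16% (-0.77, SE 0.18). The adjusted p of Traj50 was 0.00404, and 0.0502 without KO 48 h replicate 2. Traj49 went from 7.90% and 8.19% to 5.05% and 5.92% (-0.56, SE 0.20, adjusted p = 0.0308). Its groups did not overlap, but the call was lost without any one of the 4 KO libraries, with an adjusted p of up to 0.182. Traj48 went from 6.11% and 5.98% to 4.39% and 4.62% (-0.42, adjusted p = 0.0527, limma), and was called once the kind of table was a term of the model (adjusted p = 0.0309). Traj47 (0.20) and Traj45 (-0.16) had overlapping groups.

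Traj44 to Traj39 was the window in which the direction turned. It held 15.6% and 13.8% at 24 h and 19.5% and 19.6% at 48 h. All 5 segments were higher in both 48 h libraries than in both 24 h libraries, and Traj40 and Traj39 were called as risen, while on the centred scale both had a negative change (-0.37 and -0.083). Traj40 went from 4.08% and 3.49% to 5.13% and 5.31% and led replicate 1 at 48 h (log2 fold change 0.47, SE 0.16, adjusted p = 0.0278, limma). It lost its call without KO 24 h replicate 2 or either KO 48 h library, with an adjusted p of up to 0.138. Traj39 went from 2.54% and 2.19% to 3.93% and 4.05% (0.76, SE 0.16, adjusted p = 0.00194), with little spread in either pair. Traj44 (0.41), Traj43 (0.27) and Traj42 (0.24) were not called. On the centred scale Traj43 (-0.57, adjusted p = 0.0232, limma) and Traj42 (-0.60, adjusted p = 0.0112) were called as fallen. No segment of this window was called as risen on that scale, so the turn holds for shares of the repertoire.

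From Traj38 to Traj31 all 7 segments rose, and the window gained more of the repertoire than any other, from 13.7% and 11.3% to 22.8% and 23.5% (10.6 percentage points). The centred scale called none of the 7, whose median log2 fold change was 0.93 before centring. Traj31 went from 2.44% and 2.08% to 4.91% and 6.08% (1.28, SE 0.18, adjusted p = 0.000308, limma) and was the leading segment of replicate 2 at 48 h. Both 48 h libraries stood far above both at 24 h. Traj33, the segment of the receptor of mucosal-associated invariant T (MAIT) cells, went from 1.26% and 1.09% to 2.32% and 2.16% (0.93, SE 0.17, adjusted p = 0.00125). Traj38 was uneven between replicates at 24 h, at 1.11% and 0.412%, and stood at 1.97% and 1.44% at 48 h (1.30, SE 0.44, adjusted p = 0.0248). Without KO 24 h replicate 2 or KO 48 h replicate 1 the call of Traj38 was lost, with an adjusted p of up to 0.154.

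The 3' part of the array gained most in relative terms. Traj30 to Traj22 went from 3.82% and 2.69% to 11.1% and 10.1%, Traj21 to Traj12 from 2.54% and 1.87% to 8.09% and 8.01%, and Traj11 to Traj2 from 0.806% and 0.855% to 2.38% and 2.51%. All 7 segments of each of the first 2 of these windows rose, with medians of 1.80 in both, and 6 of each remained called on the centred scale. Of the 7 most 3' segments 6 rose, with a median of 1.51 (5 on the centred scale), and Traj7 was not called (0.91, adjusted p = 0.113, limma). The largest log2 fold change of the array, 2.37 (SE 0.31, adjusted p = 0.000308), was that of Traj13, which went from 0.202% and 0.112% to 0.756% and 0.889%. Traj27 went from 0.751% and 0.419% to 2.14% and 2.04% (1.88, SE 0.26), and Traj23 from 0.325% and 0.347% to 1.15% and 1.36% (1.86, SE 0.17). For these 3 segments the lowest 48 h library was above the highest 24 h library by a wide margin. Traj18, the segment of the invariant natural killer T (NKT) receptor, went from 0.554% and 0.406% to 1.75% and 1.61% (1.80, SE 0.31, adjusted p = 0.00089). Traj12 went from 0.243% and 0.182% to 0.865% and 0.875% (2.00, SE 0.19) and Traj9 from 0.136% and 0.153% to 0.517% and 0.585% (1.86, SE 0.18). Traj11 went from 0.0660% and 0.0943% to 0.283% and 0.281% (1.71, SE 0.23). Traj2 remained rare, at 0.0462% and 0.0589% at 24 h and 0.142% and 0.185% at 48 h (1.47, SE 0.21, adjusted p = 0.000308), with both 48 h libraries above both at 24 h. Across the 43 segments, Spearman's rho between log2 fold change and distance from Traj58 was 0.816, a description over segments that share libraries and a total. Fold changes computed within replicate 1 and within replicate 2 had a rho of 0.889 with each other.

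**Figure D2:**
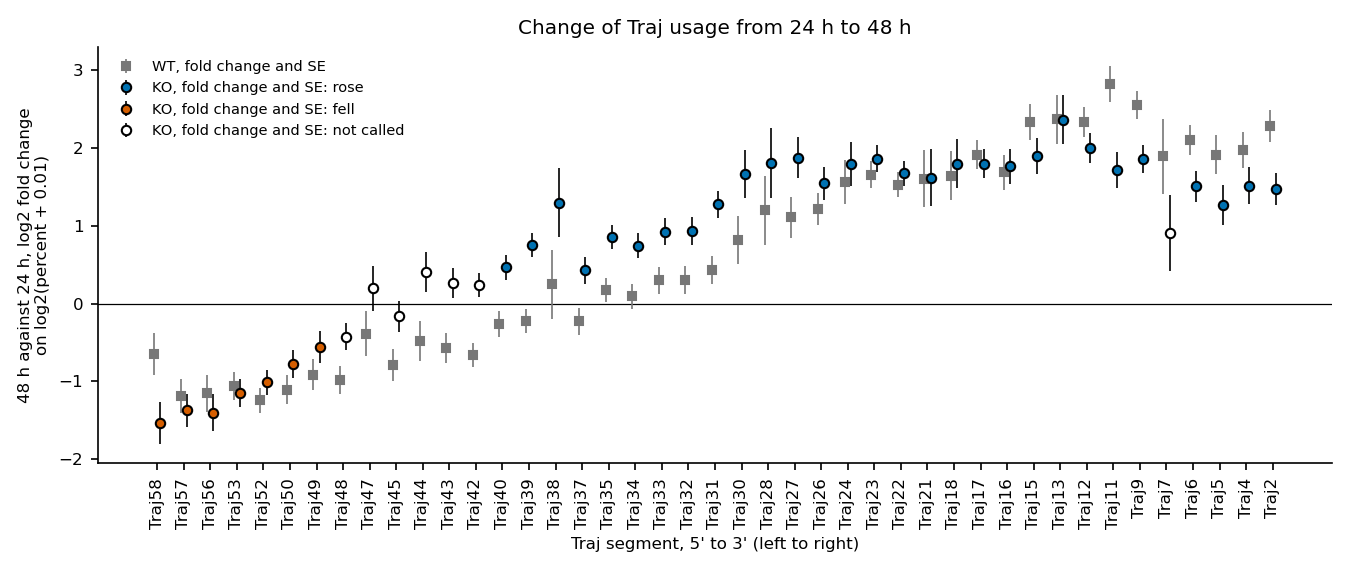
Log2 fold change from 24 h to 48 h of each Traj segment, with SE bars from the limma model, in KO cells (circles, filled where called: orange for falls, blue for rises) and WT cells (grey squares). KO falls run from Traj58 to Traj49 and KO rises from Traj40 onward with the exception of Traj7, with the peak of 2.37 at Traj13, whereas WT values go on increasing to 2.82 at Traj11.

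At 48 h KO usage had a centre still 5' of that in the unlabelled KO population. Steady-state KO libraries had a mean Traj number of 36.7 and 35.3, below the 48 h values of 38.6 and 38.5. The median Traj was Traj39 and Traj37 there, against Traj40 in both libraries at 48 h. The TEA window held 11.9% in each library at 48 h, within the steady-state values of 13.5% and 11.5%. The windows from Traj52 to Traj31 stood above the steady-state level at 48 h. Traj52 to Traj45 held 24.3% in each library against 21.7% and 19.8%. Traj44 to Traj39 held 19.5% and 19.6% against 15.8% and 15.1%, and Traj38 to Traj31 held 22.8% and 23.5% against 19.8% and 20.9%. The far 3' windows stood below the steady-state level: Traj21 to Traj12 held 8.09% and 8.01% against 12.2% and 14.0%, and Traj11 to Traj2 held 2.38% and 2.51% against 5.30% and 6.07%. These are values side by side, with no test.

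WT cells moved along the array over the same day from a position farther 3', and by more numbers. Their mean Traj number went from 41.8 and 43.0 to 32.0 and 33.7, a change of -9.55 against -7.84 in KO cells. The KO value at 48 h thus lay between the WT values at 24 h and at 48 h. Traj44 to Traj39 was the one window of the 7 in which the genotypes moved in opposite directions, with a change of 4.81 percentage points in KO cells and -4.71 in WT cells. At the 5' end the KO loss was the greater, with a change of -19.0 against -9.94 percentage points in the TEA window, from a higher start. At the 3' end the KO gain in points was the smaller, from a lower start: 5.84 against 11.6 in Traj21 to Traj12 and 1.61 against 6.66 in Traj11 to Traj2. On the log2 scale the median change in Traj21 to Traj12 was close in the genotypes, 1.80 in KO and 1.92 in WT cells. In Traj11 to Traj2 it was 1.51 and 2.10.

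The difference between the KO and WT changes was tested for each Traj segment as an interaction. None of 43 (0%) passed the limma threshold, and 14 had an unadjusted p under 0.05. With the kind of table as a term the same test called 16 (37.2%), of which 11 (25.6%) changed upward in KO relative to WT and 5 (11.6%) downward. Without that term but with KO 24 h replicate 1 left out, it called 10. The 11 were 5 of 5 in Traj44 to Traj39, 4 of 7 in Traj38 to Traj31 and 2 of 7 in Traj30 to Traj22, and the 5 were Traj58 and 4 of 7 in Traj11 to Traj2. Traj39 held 3.07% and 3.04% in WT cells at 24 h and 2.65% and 2.59% at 48 h, with both 48 h libraries the lower, against 2.54% and 2.19% and then 3.93% and 4.05% in KO cells. The difference of the changes was 0.98 (SE 0.22, adjusted p = 0.0657 without and 0.0316 with the kind of table as a term, limma). Traj11 went from 0.122% and 0.108% to 1.05% and 0.722% in WT cells, the largest WT rise, against 0.0660% and 0.0943% to 0.283% and 0.281% in KO cells (difference -1.11, SE 0.33, adjusted p = 0.0949 and 0.0316). Traj58 held 4.31% and 2.44% in WT cells at 24 h and 2.14% and 2.00% at 48 h, with the 24 h libraries farther apart than those of KO cells, and the difference of the changes was -0.89 (SE 0.39, adjusted p = 0.145 and 0.0380).

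Trav usage was far less even between the replicates than Traj usage. The median absolute deviation of a KO library from its group mean was 0.520 and 0.522 on the log2 scale at 24 h and 48 h for Trav segments, against 0.140 and 0.0576 for Traj segments and 0.0702 for Trav segments in steady-state KO cells. Each labelled pair joins both kinds of table and the steady-state pair does not. The difference in spread from steady state therefore cannot be told apart from the kind of table. Trav15-2-dv6-2, a proximal segment that can also join in Tcrd, held 1.10% and 12.7% at 24 h and 0.672% and 11.7% at 48 h. That split followed the replicate number, not the time. Segments with dv in their names together held 16.5% and 28.6% at 24 h and 13.3% and 25.6% at 48 h. Copies with the suffix d are near-identical to segments without it, and how the authors assigned shared reads is not given, so the split between such copies is uncertain.

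The 79 Trav segments were ranked along chromosome 14 from Trav1 (chr14:52427928-52428876), the most distal from the Traj array, to Trav21-dv12 (chr14:53875984-53876752), the most proximal, and divided into 26 distal, 26 central and 27 proximal segments. Between 24 h and 48 h KO usage shifted away from the proximal zone. Proximal segments held 63.6% and 66.5% at 24 h and 49.7% and 57.3% at 48 h. Central segments went from 22.7% and 19.4% to 31.7% and 26.4%, and distal segments from 13.7% and 14.1% to 18.6% and 16.3%. The 24 h and 48 h libraries did not overlap in any of the 3 zones. The mean Trav rank went from 54.1 and 54.2 to 47.7 and 50.0. Steady-state KO libraries stood further along, with 45.5% and 41.9% in proximal segments. In WT cells the proximal share changed by -18.4 percentage points, against -11.5 in KO cells.

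No single Trav segment passed the limma threshold (0 of 79, 0%), and 6 had an unadjusted p under 0.05. With the kind of table as a term, 20 (25.3%) rose and 7 (8.86%) fell. The 20 comprised 8 of the 26 distal and 12 of the 26 central segments, and the 7 were all among the 27 proximal ones. Both 48 h libraries were above both 24 h libraries for 16 segments (20.3%) and below them for 5 (6.33%). Within both replicate numbers the 48 h library was the higher for 38 segments (48.1%; 15 distal, 20 central, 3 proximal) and the lower for 18 (22.8%; 3 distal, 1 central, 14 proximal). Over the 79 segments the fold change had a Spearman's rho with rank of -0.609 within replicate 1 and -0.550 within replicate 2, a description over segments that share a library. The interaction with genotype called no Trav segment (0 of 79, 0%; none at an unadjusted p under 0.05), and none with the kind of table as a term, with 10 at an unadjusted p under 0.05.

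**Figure D3:**
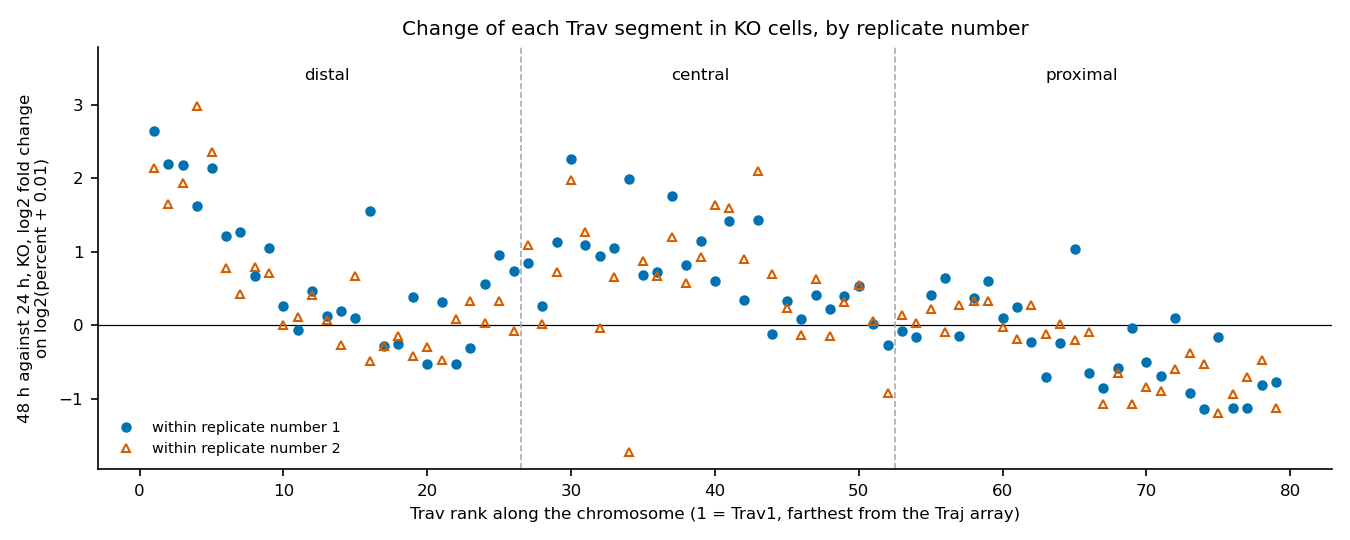
Log2 fold change of each of the 79 Trav segments from KO 24 h to KO 48 h, computed within replicate 1 (blue circles) and within replicate 2 (orange triangles), against rank along the chromosome. The 5 most distal segments lie above 1.5 in both replicates, most central segments lie above 0, and most proximal segments lie below 0.

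At the distal end, Trav1, which encodes the MAIT cell receptor, held 0.0454% and 0.0294% at 24 h and 0.334% and 0.163% at 48 h. Both 48 h values were several times both 24 h values, and the fold change was 2.38 on the log2 scale (SE 0.75, adjusted p = 0.364 without and 0.00127 with the kind of table as a term, limma). Trav3-1, next in order, held 0.144% and 0.594% and then 0.692% and 1.89% (1.92, SE 0.92, adjusted p = 0.718 and 0.00765). Replicate 2 was the higher at each time, and the log2 fold change was 2.19 within replicate 1 and 1.65 within replicate 2. The 3 segments that follow were chosen after their values were seen: Trav6-1 (2.06), Trav7-1 (2.30) and Trav6-2 (2.25) also rose with the kind of table as a term. In the central zone, Trav3d-3 went from 0.706% and 0.738% to 1.57% and 1.22% (0.93, SE 0.49, adjusted p = 0.758 and 0.0397) and Trav13d-4 from 0.148% and 0.660% to 0.526% and 1.52% (1.48, SE 0.97, adjusted p = 0.83 and 0.0085). The groups of Trav13d-4 overlapped, and those of Trav3d-3 did not. Trav7-3 stood at 2.99% and 0.766% and then 3.82% and 1.44%, and Trav7-4 at 3.13% and 3.14% and then 2.90% and 5.11%. These had large gains in percentage points, passed neither version of the test, and Trav7-4 moved in opposite directions in the replicates. Trav11, the segment of invariant NKT cells, stood at 0.410% and 0.0472% and then 0.602% and 0.0740%, also not called.

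At the proximal end, Trav17 went from 3.22% and 2.32% to 1.48% and 1.21%. The groups did not overlap, and the log2 fold change was -1.03 (SE 0.42, adjusted p = 0.625 without and 0.00765 with the kind of table as a term, limma). Trav21-dv12, the last Trav before the Traj array, went from 4.07% and 1.97% to 2.38% and 0.897% (-0.95, SE 0.78, adjusted p = 0.979 and 0.0111). Trav19 went from 2.69% and 0.824% to 1.24% and 0.504% (-0.91, SE 0.91, adjusted p = 0.979 and 0.0289). In both of these, replicate 1 at 48 h still exceeded replicate 2 at 24 h, so the groups overlapped although both replicates moved down. Trav5-4 went from 3.28% and 0.705% to 1.82% and 0.332% (-0.95, SE 1.34, adjusted p = 0.979 and 0.0102). Trav3-4 went from 3.01% and 4.21% to 1.36% and 2.94% (-0.83, SE 0.58, adjusted p = 0.844 and 0.033). Trav14-3 lost the most in percentage points, from 4.64% and 8.96% to 2.46% and 6.92%, and was called by neither version of the test (adjusted p = 0.979 and 0.0582). Every one of these proximal segments was lower at 48 h within both replicates. Trav5-4, Trav3-4 and Trav14-3 were named for their losses, so their direction is no separate result. Of all 27 proximal segments, 14 were lower within both replicates.

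A lower Traj number at 48 h was present within nearly every Trav segment taken alone. Of the 54 Trav segments with a mean share of at least 0.5% over the 8 libraries, the mean Traj number of their joints fell in 51 (94.4%) and rose in none, with a median change of -7.94 (limma on the unlogged means). The filter did not require that share in KO cells at 24 h. It was lower at 48 h within both replicates for all 54. The median change was -8.43 in 13 distal, -8.98 in 18 central and -6.02 in 23 proximal segments, with overlapping ranges (-15.2 to -2.43 in distal and -9.84 to -1.68 in proximal segments), and the difference between zones was not tested. Trav12d-2 had joints with a mean Traj number that went from 48.6 and 50.9 to 34.9 and 34.2, the largest change (-15.2, SE 1.67, adjusted p = 9.16e-05, limma). Its share of the repertoire, by contrast, stood at 0.980% and 0.996% and then 1.45% and 1.02%, and was not called (log2 fold change 0.30, adjusted p = 0.979). Trav4d-3 changed by -11.7 (SE 1.53) and Trav15d-2-dv6d-2 by -11.6 (SE 1.32). The 3 segments that were not called had the smallest changes: Trav21-dv12 went from 49.7 and 51.0 to 47.3 and 50.1 (-1.68, SE 1.47, adjusted p = 0.278), Trav19 from 50.2 and 52.7 to 47.2 and 50.8 (-2.42, SE 1.66, adjusted p = 0.179) and Trav7-1 from 38.6 and 34.8 to 34.8 and 33.8 (-2.43, SE 1.65, adjusted p = 0.175). The first 2 are the most proximal of the 54 and remained joined to 5' Traj segments at 48 h, whereas joints of Trav7-1, at the distal end, were already far 3' at 24 h. No segment passed the test of a difference between the KO and WT changes (0 of 54, 0%; 6 at an unadjusted p under 0.05).

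The position of the Trav partners was examined per Traj segment in the same way. Of 38 Traj segments with a mean share of at least 0.5%, the mean Trav rank of their partners fell, that is moved distally, in 23 (60.5%), and rose in none, with a median change of -5.66. That mean share was taken over the 8 KO and WT libraries at 24 h and 48 h. A segment could therefore pass with a KO share below 0.5% at 24 h, and Traj23, Traj13, Traj12 and Traj9 did. Their mean ranks at 24 h rest on a small part of the repertoire. By window, none of the 4 segments of the TEA window and none of the 6 of Traj52 to Traj45 were called, against 3 of 5 in Traj44 to Traj39, 7 of 7 in Traj38 to Traj31, 5 of 6 in Traj30 to Traj22, 6 of 7 in Traj21 to Traj12 and 2 of 3 in Traj11 to Traj2. In Traj52 to Traj45 all 6 changes were nevertheless negative (median -1.82, from -3.02 to -0.65), 4 of the 6 were lower at 48 h in both replicates, and windows were not tested against each other. The partners of Traj58 had a mean rank of 56.9 and 53.3 at 24 h and 56.9 and 54.8 at 48 h (0.75, SE 2.06, adjusted p = 0.779, limma). Values for Traj57 (-0.15, SE 1.98) and Traj56 (0.90, SE 1.92) were as close to 0. These 5' segments fell in share, and the estimated change in the position of their partners was smaller than its standard error. A change of the size of that error is not excluded. Traj18 had partners with a mean rank of 50.7 and 50.4 at 24 h and 42.2 and 41.9 at 48 h (-8.50, SE 1.90, adjusted p = 0.00366), and Traj23 of 49.8 and 49.7 and then 41.2 and 41.3 (-8.47, SE 1.91, adjusted p = 0.00366). Traj15 had the largest change (-9.03, SE 2.20, adjusted p = 0.00544), which lost its call without KO 24 h replicate 2. The count of 23 depended on single libraries: it was 8 without KO 24 h replicate 2 and 6 without KO 48 h replicate 1. The difference between the KO and WT changes was called for none of 38 (0%; 3 at an unadjusted p under 0.05). With the kind of table as a term it was called for 3 (7.89%), Traj16, Traj12 and Traj4, in which the KO change was the smaller, and without WT 48 h replicate 2 for 4.

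**Figure D4:**
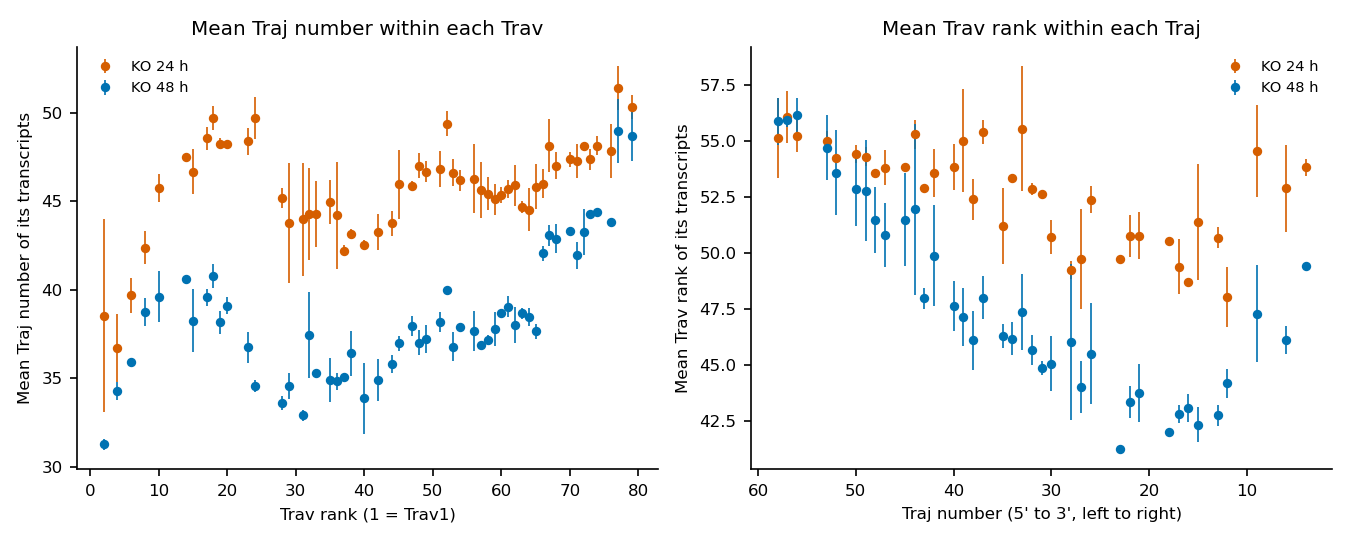
Left, mean Traj number of the joints of each of the 54 Trav segments against Trav rank; right, mean Trav rank of the partners of each of the 38 Traj segments against Traj number, in KO cells at 24 h (orange) and 48 h (blue), where points are means of 2 libraries and bars reach the 2 library values. On the left the 48 h points lie below the 24 h points for all 54 segments; on the right the 2 sets lie close together at Traj58 to Traj56 and lie apart in the 3' windows.

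Taken by zone and window, the largest losses in percentage points were those of joints between proximal Trav segments and the 5' Traj windows, which also held the largest shares at 24 h. Proximal Trav segments joined to Traj58 to Traj53 made up 18.6% and 22.7% of the repertoire at 24 h and 7.89% and 8.25% at 48 h, a loss of 12.6 percentage points, and those joined to Traj52 to Traj45 changed by -8.26. In relative terms the loss of TEA-window joints was similar in the other zones, where the mean share went from 5.22% to 1.92% with central and from 4.96% to 1.90% with distal Trav segments. The largest gain, 4.63 points, was that of central Trav segments joined to Traj38 to Traj31, from 3.56% and 2.41% to 8.15% and 7.09%. Distal segments joined to that window gained 2.91 points and proximal ones 3.10. The product of a zone's share and a window's share gives the value their joints would have if Trav and Traj were chosen independently. Proximal joints to the TEA window stood at 1.07 and 0.999 times this product at 24 h and at 1.34 and 1.21 times at 48 h. Central joints to the same window stood at 0.743 and 0.874 times and then at 0.539 and 0.578 times. Proximal joints to Traj21 to Traj12 stood at 0.828 and 0.898 times and then at 0.732 and 0.710 times. The share-weighted correlation between Trav rank and Traj number in a library was 0.0733 and 0.0322 at 24 h, 0.166 and 0.189 at 48 h and 0.264 and 0.279 at steady state, a description of joints that share a library. By this linear measure Trav and Traj position were weakly related among joints at 24 h and more closely ordered later. The most 3' window did not follow this order at 48 h. Proximal joints to Traj11 to Traj2 stood at 0.968 and 0.892 times the product and then at 0.995 and 0.920 times. Distal joints to that window stood at 0.945 and 1.07 times and then at 0.929 and 1.05 times. A linear measure can miss departures within single zones, which were present at 24 h. Distal joints to the TEA window then stood at 1.12 and 1.18 times the product. Central joints to Traj21 to Traj12 stood at 1.44 and 1.36 times.

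**Figure D5:**
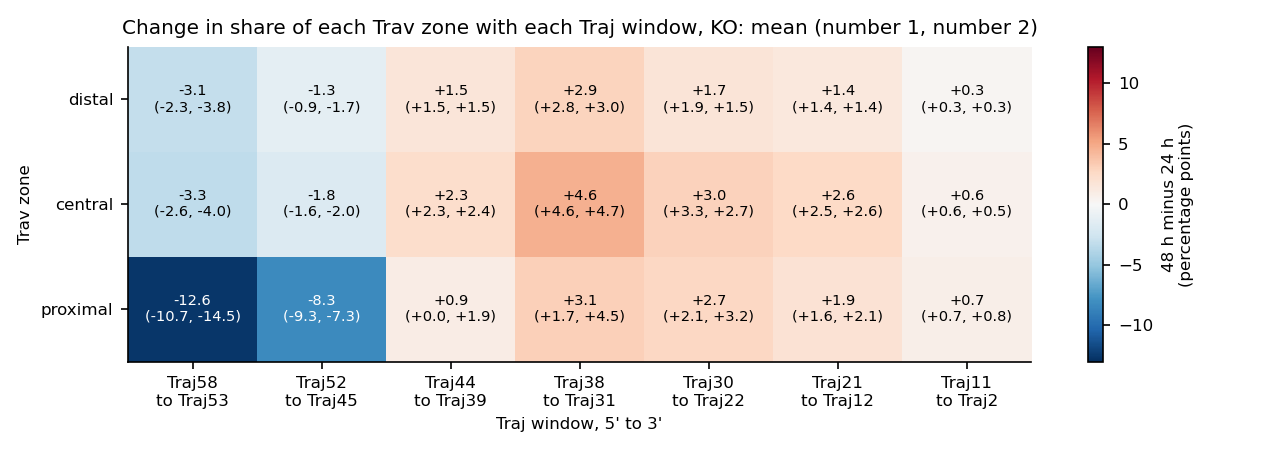
Change in share of the KO repertoire from 24 h to 48 h (percentage points; blue lower, red higher at 48 h) for each Trav zone joined to each Traj window, as the mean with the values of replicates 1 and 2 in brackets. Proximal Trav segments with Traj58 to Traj53 lose 12.6 points and central segments with Traj38 to Traj31 gain 4.63, and the replicates have the same sign in every cell.

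No single Trav-Traj pair passed the test (0 of 3397, 0%), with 381 at an unadjusted p under 0.05. None passed with the kind of table as a term either, with 691 at an unadjusted p under 0.05. The direction was the same in both replicates and upward for 1156 pairs (34.0%) and downward for 517 (15.2%), and both 48 h libraries were above both 24 h libraries for 866 (25.5%) and below them for 270 (7.95%). A pair at 0 at 24 h cannot be lower at 48 h, and one at 0 at 48 h cannot be higher. In replicate 2, 55.2% of pairs were at 0 at 24 h and 44.3% at 48 h. The upward and downward counts are therefore not on an equal footing. Of the 108 pairs between proximal Trav segments and the TEA window, 99 were lower at 48 h in both replicates (91.7%), against 72 of 104 with central and 57 of 104 with distal Trav segments. In the same order, 0, 2 and 2 pairs were higher in both replicates. The other 9, 30 and 45 were mixed, a class that includes ties at 0, so these counts do not rank the zones by size of loss. The pair of the segments on either side of the gap between the arrays, Trav21-dv12 with Traj58, was the largest pair of both replicate 1 libraries, at 0.678% at 24 h and 0.314% at 48 h, and it stood at 0.330% and 0.0887% in replicate 2. Trav14-3 with Traj57 lost the most in percentage points, from 0.392% and 0.936% to 0.151% and 0.304%. Trav3-4 with Traj56 went from 0.320% and 0.859% to 0.106% and 0.252%, and Trav14-3 with Traj56 and with Traj53 and Trav15-2-dv6-2 with Traj49 complete the 5 largest losses. Among gains, Trav7-4 with Traj31 went from 0.0867% and 0.0589% to 0.153% and 0.378%, and Trav7-3 with Traj31 from 0.110% and 0.0178% to 0.209% and 0.186%. The other 3 of the largest gains were Trav15-2-dv6-2 with Traj31, Traj32 and Traj39. These were carried by replicate 2, with Traj31 at 0.0198% and 0.147% and then 0.0266% and 0.534%, and the groups overlapped.

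Marker joints of invariant NKT and MAIT cells, mature cells that a CD3e-negative gate should leave out, were rare. Trav11 with Traj18, the invariant NKT joint, held 0.00826% and 0% at 24 h and 0.0347% and 0% at 48 h, and Trav11d with Traj18 was listed at 0 in all but replicate 1 at 48 h (0.00342%). Trav1 with Traj33, the MAIT joint, was listed at 0 at 24 h and held 0.0128% and 0% at 48 h. In the coarser replicate 2 tables all 3 joints were listed at 0 at both times. In replicate 1 at 48 h the Traj segments of these joints held 1.75% (Traj18) and 2.32% (Traj33) of the repertoire. A Traj share is summed over all Trav partners, so any joint is small against it. That comparison therefore cannot show whether mature cells were left out. Whether these joints exceeded the product of their Trav and Traj shares was not tested.

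More different joints were listed at 48 h than at 24 h within each replicate of the KO libraries. A count of pairs above 0 depends on depth, which is unknown, and in WT replicate 2 it went the other way, from 1981 to 1871. Pairs above 0 numbered 2910 at 24 h and 3301 at 48 h in replicate 1 and 1521 and 1891 in replicate 2, of 3397. The effective number of pairs went from 1103 to 1858 and from 680 to 1067. The 100 largest pairs of a library held 27.7% and 40.7% of the repertoire at 24 h and 16.2% and 29.9% at 48 h. The effective number of Trav segments went from 49.9 to 59.9 in replicate 1 and from 38.3 to 42.7 in replicate 2. The gap between replicates in pairs above 0 was larger than the change over time in either replicate, so these values compare only within a replicate.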

How the data were processed

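Tcra transcripts of total RNA were amplified by template-switch RACE from a Trac antisense primer, per the labels' protocols. The values deposited by the authors are fractions of the repertoire for each Trav-Traj pair. No source used here names the aligner, the build, the segment annotation or the unit counted. Replicate 2 tables at 24 h and 48 h sum to near 2, so each table was rescaled to percent over the 79 Trav segments listed in all, which held 99.2% to 99.7% of the 4 KO tables, and 6 other Trav segments were left out. Pair shares were summed per Trav and per Traj segment. Segments were placed with GENCODE M21 on GRCm38, which matched 77 of 79 Trav and 43 of 43 Traj names.

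The model was limma 3.58.1 in R 4.3.3 on log2(percent + 0.01), with a mean per group over the 8 libraries at 24 h and 48 h, 4 residual degrees of freedom, empirical Bayes moderation and Benjamini-Hochberg adjustment at 0.05 over all segments or pairs. Steady-state libraries were left out of this model because earlier results of these data showed that they vary less. The median absolute deviation of Trav segments was 0.0702 to 0.0824 on the log2 scale there and 0.467 to 0.522 in the labelled groups. For Traj segments it was 0.0533 and 0.0700 at steady state and 0.0576 to 0.140 in the labelled groups. The KO 48 h group, at 0.0576, thus did not vary more in Traj usage than the steady-state KO libraries. Mean Traj number per Trav and mean Trav rank per Traj were fitted unlogged for segments with a mean share of at least 0.5%. Tests ran on simulated data first. Alternatives were other pseudocounts, filters, centring, all 12 libraries, the 4 KO libraries alone, all rows, leaving out each library, and the replicate number as a term.

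Named Trav and Traj segments and pairs follow a written rule based on position, the largest changes and textbook roles, except where stated. The comparison, the lists and the rule were chosen with earlier results of these data known. Data were handled in Python 3.11.15 with pandas 2.3.3.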

Additional observations from a re-analysis of the deposited data

Results flagged for a closer look

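For 5 Traj segments between Traj43 and Traj37 both KO libraries were higher at 48 h than both at 24 h, while both WT libraries were lower at 48 h than both at 24 h. The difference between the KO and WT changes on the log2 scale was 0.84 for Traj43 (0.27 in KO, -0.57 in WT), 0.90 for Traj42 (0.24 and -0.66), 0.73 for Traj40 (0.47 and -0.26), 0.98 for Traj39 (0.76 and -0.22) and 0.65 for Traj37 (0.43 and -0.23). Traj38, which lies among them, did not show this pattern, with 1.66% and 0.980% in WT cells at 24 h and 1.61% and 1.44% at 48 h. Traj37 lies outside the naming rule and was chosen after its values were seen. By limma over the 43 segments the adjusted p of these differences was 0.0949, 0.0657, 0.0949, 0.0657 and 0.11 in that order, and 0.038, 0.0316, 0.0382, 0.0316 and 0.051 with the kind of table as a term. Traj42 held 4.41% and 4.15% in KO cells at 24 h and 4.92% and 5.17% at 48 h, against 4.86% and 5.23% and then 3.27% and 3.10% in WT cells. Traj37 held 2.83% and 2.47% and then 3.58% and 3.55% in KO cells, against 4.11% and 4.30% and then 3.23% and 4.01% in WT cells. Relative to the mean log share of each library, the KO changes of the 5 segments were -0.57, -0.60, -0.37, -0.083 and -0.41, so the KO increase holds for shares of the repertoire and not on that scale.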

How the results depend on the processing

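The counts of called Traj segments (36 as reported, 28 to 38 over the alternatives run) and of called mean Traj numbers per Trav segment stayed within 1.5 times of those reported. The count of Traj segments whose change differed between genotypes was 0 as reported, 5 with a pseudocount of 0.1, 13 with all 12 libraries, 16 with the replicate block, and 0 to 10 when single libraries were left out, 10 without KO 24 h replicate 1. The count of called Trav segments was 1 with all 12 libraries (Trav9d-4, chosen after its values were seen) and 27 with the replicate block, and 1 pair was called with a pseudocount of 0.1. Called mean Trav ranks per Traj segment numbered 6 to 24 when single libraries were left out. Their difference between genotypes was called for 3 with all 12 libraries, 3 with the replicate block and 0 to 4 when single libraries were left out. On the centred scale Traj40 (-0.37) and Traj39 (-0.083) reversed. The cause was not tested. The change within replicate 1 and within replicate 2 was -7.09 and -8.59 for the mean Traj number, -11.7 and -10.9 points for Traj52 to Traj45, 3.84 and 5.77 for Traj44 to Traj39, 9.07 and 12.2 for Traj38 to Traj31, and 4.84 and 2.16 for distal Trav segments. The labels do not say that a replicate number marks a shared mouse, batch or day, but the kind of table goes with it in both genotypes, so the replicate block is also a term for the kind of table. Deviations of same-numbered KO libraries at 24 h and 48 h correlated at 0.497 for Traj, 0.880 for Trav and 0.577 for pairs, and those of KO and WT libraries at the same time at 0.927 and 0.931 for Trav, with 2 numbers only, and the block passed 9 named features that had not been called. Depth is unknown, and the coarser replicate 2 tables limit what can be said of rare pairs.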
